A study of Mus musculus with 15 samples.

Results

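Knockdowns of the DEAD-box RNA helicases Ddx10 and Ddx24 were compared directly in the mouse embryonic stem cell line E14. The 3 libraries of cells given small interfering RNA against Ddx10 (Ddx10KD) were set against the 3 of cells given small interfering RNA against Ddx24 (Ddx24KD), chosen by their treatment label. These are 6 of 15 poly(A) RNA libraries, which also cover knockdowns of Ddx27 (Ddx27KD) and Ddx54 (Ddx54KD) and a control knockdown of EGFP (EGFPKD), each of the 5 groups having 3 biological replicates. All groups shared the line, transfection for 16 h (400 ng of the interfering RNA, 4 µL of Lipofectamine), harvest at 48 h and plates coated with 0.2% gelatin. The depletion was therefore transient and partial, in 1 cell line, and the number and sequences of the small interfering RNAs for each target are not stated in these sources. The title of the series places these proteins at R-loops, which are RNA-DNA hybrids, and in the maturation of ribosomal RNA.

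DEAD-box proteins use ATP to unwind or remodel RNA and RNA-protein complexes, and many of them act in the nucleolus, where ribosomes are built. The yeast counterpart of Ddx10, Dbp4, acts with the U14 small nucleolar RNA in the pathway to 18S ribosomal RNA and the small subunit. The yeast counterpart of Ddx24, Mak5, is needed for the large subunit. Comparing the knockdowns with each other sets aside what both did relative to the control and leaves the transcripts on which they differed.

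Libraries held 26866327 to 27694846 expected counts in Ddx10KD and Ddx24KD, and 14335 of 23845 genes passed the count filter. All 9 markers of embryonic stem cells were tested, at a summed level of 7862 to 8149 TPM (a level scaled for transcript length and depth) in Ddx10KD and 7960 to 8006 TPM in Ddx24KD, and 2 of them, Esrrb and Tdgf1, were called lower. The 10 markers of feeder fibroblasts summed to 13.2 to 17.7 TPM in Ddx10KD and 13.97 to 16.2 TPM in Ddx24KD, and none of the 4 that were tested was called. The 7 markers of extra-embryonic endoderm summed to 4.82 to 6.60 TPM in Ddx10KD and 3.52 to 5.48 TPM in Ddx24KD, and the 7 trophoblast markers to 18.03 to 24.7 TPM in Ddx10KD and 16.0 to 19.4 TPM in Ddx24KD, with 1 of these, Eomes, called. Postn and Afp were at 0 in all 6 libraries. In a principal component analysis of all 15 libraries, components 1 to 3 (42%, 9.11% and 7.82% of the variance) did not separate Ddx10KD from the other 12. Component 4, with 6.83%, held the Ddx10KD libraries at 12.3 to 18.9 and the other 12 at -15.0 to 1.77. Replicate 2 of Ddx24KD stood apart on component 5, with 5.07% of the variance, at -23.1 against -5.72 to 10.1 for the others. In an analysis of the 6 libraries alone, component 1 (32.5%) held that replicate at -30 and the others at -1.49 to 18.3. There Ddx10KD and Ddx24KD overlapped on each of components 1 to 3. The replicate number was used as a block, as the definition of the comparison asked. Libraries with the same replicate number deviated together from their group means.

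Each target was low in its own knockdown. Ddx10 (chromosome 9, 53098454 to 53248170) had 33.3, 26.7 and 20.96 CPM in the Ddx10KD libraries, against 123, 136 and 128 CPM in the Ddx24KD libraries, where CPM are counts scaled to library size with TMM factors. The Ddx10KD libraries all lay below the Ddx24KD libraries, and in EGFPKD the gene had 144, 142 and 151 CPM. The log2 difference, Ddx10KD minus Ddx24KD, was -2.26 ± 0.09 (SE; adjusted p = 4.46e-11, edgeR quasi-likelihood test with Benjamini-Hochberg adjustment over all tested genes, which applies to each adjusted p given here). Ddx24 (chromosome 12, 103407976 to 103425847) had 140.4, 140.4 and 139.6 CPM in the Ddx10KD libraries, against 58.00, 60.8 and 44.6 CPM in the Ddx24KD libraries, with 184, 175 and 172 CPM in EGFPKD. It differed by 1.37 ± 0.06 (adjusted p = 1.08e-10). Ddx24 was also lower in Ddx10KD than in EGFPKD, by a log2 difference of -0.34 ± 0.06 (adjusted p = 1.30e-04), whereas Ddx10 differed by -0.17 ± 0.08 between Ddx24KD and EGFPKD and was not called there (adjusted p = 0.101). Coordinates are those of RefSeq on GRCm38.p6, which shares its chromosome sequences with the mm10 build of the files.

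**Figure D1:**
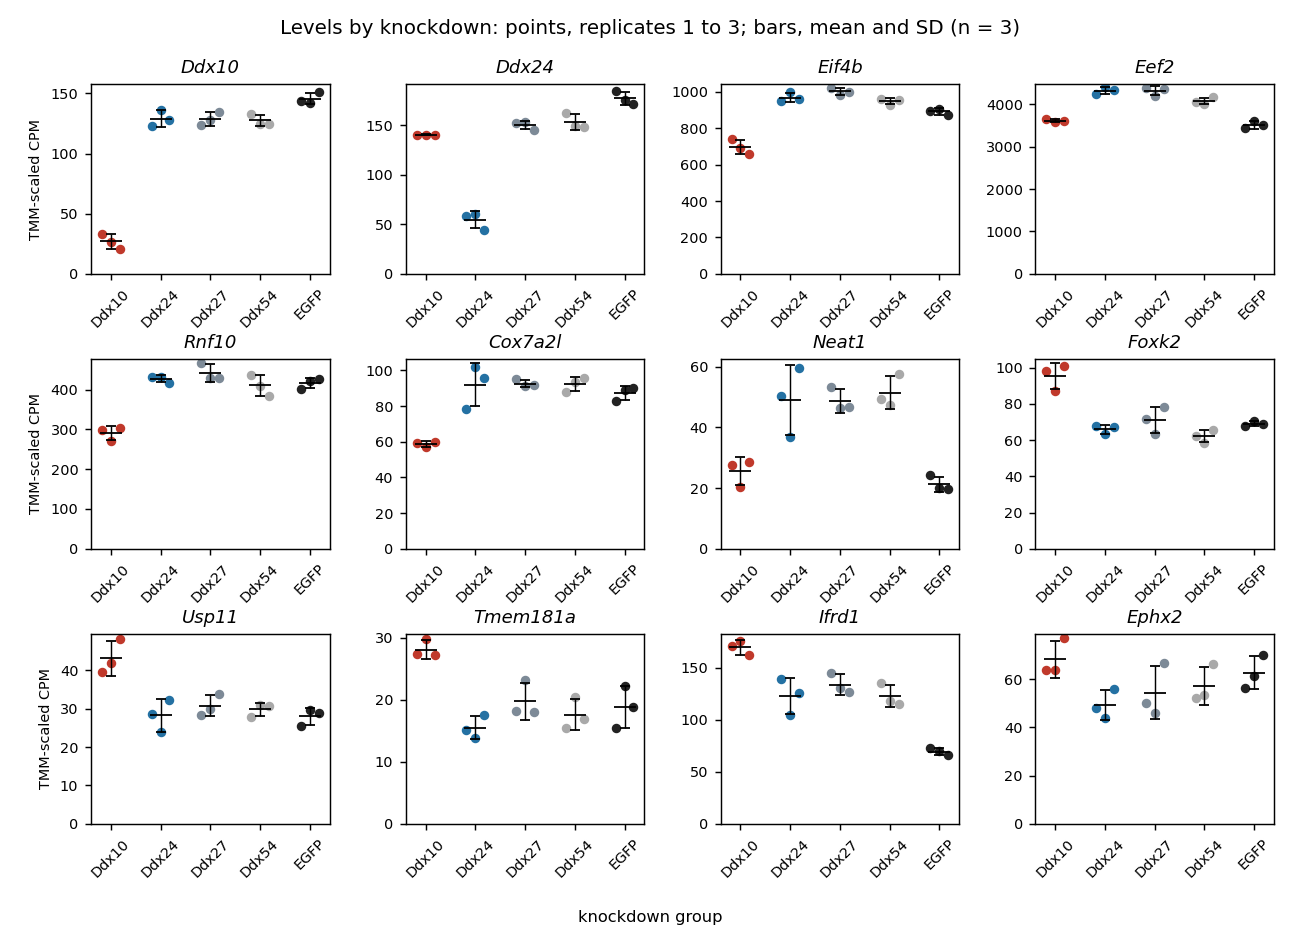
TMM-scaled CPM (vertical axes, from 0) of 12 genes in the 5 knockdown groups (horizontal axes), with points for replicates 1 to 3 and bars for mean and SD (n = 3). Ddx10 averaged 27.00 ± 6.19 CPM in Ddx10KD and 129 ± 6.82 in Ddx24KD, Eif4b, Rnf10 and Cox7a2l were lower in Ddx10KD than in Ddx24KD, and Foxk2, Usp11 and Tmem181a were higher.

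Beyond the targets, Ddx10KD cells had less messenger RNA for ribosomal proteins and some translation factors than Ddx24KD cells, by small amounts, and less RNA from genes that mark the 2-cell-like state, several of them by more than 2-fold. Genes higher in Ddx10KD included the transcription factor gene Foxk2 and the deubiquitinase gene Usp11. In all, 776 genes were called at an adjusted p under 0.05, which is 5.41% of those tested, with 333 higher in Ddx10KD (2.32%) and 443 lower (3.09%). Called genes differed by a median of 0.25 (log2) where higher and -0.22 where lower, and 32 differed by at least 2-fold, 3 higher and 29 lower. Of the 29, 12 were 2-cell-like genes. The genes called lower were the more abundant ones, with a median of 74.3 TPM, against 26.4 TPM for those called higher and 14.3 TPM for all tested genes. Their median transcript lengths were 2650, 2809 and 2807 bases.

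The number of called genes depended on the fit. Without the replicate block 59 genes were called (0.412%), 15 higher (0.105%) and 44 lower (0.307%), and all 59 were among the 776. With 1 of the 6 libraries left out, 61 to 261 genes were called higher and 130 to 458 lower, and the smallest counts came without Ddx10KD replicate 2 (61 and 130) and Ddx10KD replicate 3 (74 and 144). The same fit called 766 genes between Ddx10KD and Ddx27KD (5.34%), 1517 between Ddx10KD and Ddx54KD (10.6%), 8 between Ddx24KD and Ddx27KD (0.0558%), 250 between Ddx24KD and Ddx54KD (1.74%) and 375 between Ddx27KD and Ddx54KD (2.62%), comparisons that share libraries with one another. Against EGFPKD it called 6310 genes in Ddx10KD (44%) and 5907 in Ddx24KD (41.2%), and these comparisons share the EGFPKD libraries.

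**Figure D2:**
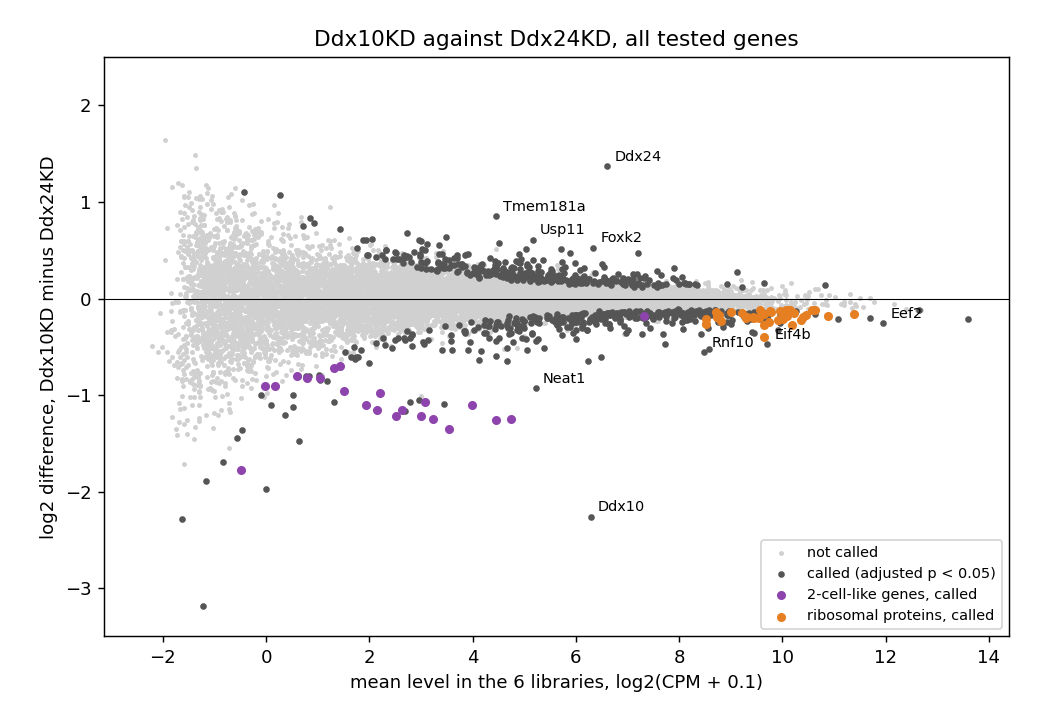
Log2 difference, Ddx10KD minus Ddx24KD (vertical axis), against mean level in the 6 libraries as log2(CPM + 0.1) (horizontal axis) for 14335 genes, with called genes dark. The 22 called 2-cell-like genes lie low at modest levels apart from Dppa2, and the 40 called ribosomal protein genes lie at high levels between -0.39 and -0.12.

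Many abundant messages of the translation apparatus were lower in Ddx10KD. Ribosomal protein genes encode the protein part of each ribosomal subunit, and initiation and elongation factors bring the ribosome to the message and along it. Of 32 genes for small subunit proteins 14 were called lower and none higher, with a median log2 difference of -0.11, and of 47 for large subunit proteins 26 were called lower and none higher, with a median of -0.12. Over all tested genes 3.09% were called lower, against 43.8% and 55.3% in these lists, and the median was 0.00. Differences of called ribosomal protein genes ran from -0.39 to -0.12, and 72 of the 79 tested lay below 0. Relative to EGFPKD, the small subunit genes had a median of 0.02 in Ddx10KD and 0.13 in Ddx24KD, and the large subunit genes a median of -0.04 in Ddx10KD and 0.09 in Ddx24KD.

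Many of these messages begin at a C followed by a run of pyrimidines, a 5′ terminal feature through which their translation is regulated. In RefSeq starts on GRCm38.p6, 14 of 58 ribosomal protein genes with a listed start (24.1%) had a C and 4 further pyrimidines exactly there, against 335 of 10734 tested genes (3.12%). Of 50 initiation and elongation factor genes with a listed start 2 had it (4%), near the share of all tested genes, and of the 6 of these that were called lower 1 had it. The windows below show pyrimidine runs near the start in 4 translation genes called lower, picked for their runs, and in Foxk2, which was higher in Ddx10KD. Of these genes only Eif3f had a C and 4 further pyrimidines exactly at the listed start. Each holds 30 bases, 15 before the start and 15 from it on, with the longest run of C and T in capitals.
Eif3f (chr7:108934400-108934429, plus strand): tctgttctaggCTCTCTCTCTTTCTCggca
Rpl27a (chr7:109519180-109519209, plus strand): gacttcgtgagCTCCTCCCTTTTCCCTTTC
Rps9 (chr7:3704026-3704055, plus strand): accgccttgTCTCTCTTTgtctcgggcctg
Eif4b (chr15:102073758-102073787, plus strand): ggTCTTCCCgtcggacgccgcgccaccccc
Foxk2 (chr11:121259972-121260001, plus strand): cgTCgtagggccggcgcgcggccgtgcgag
The run was 15 bases long in Eif3f, at least 19 in Rpl27a, where it reached the end of the window, 9 in Rps9, 7 in Eif4b and 2 in Foxk2, and in Eif4b it lay before the listed start. Long runs were not shared by all translation genes called lower, since the longest was 4 bases in the window of Eef1b2 and 2 in that of Eef2, as short as in Foxk2. A further 319 tested genes had a C and 4 pyrimidines at the start and are neither ribosomal proteins nor translation factors. Of these 319 genes, 7 were called lower and 8 higher, against 3.09% lower and 2.32% higher over all tested genes. Their median log2 difference was 0.00. A listed start is 1 annotated position, and starts in these cells were not measured.

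Rps20, of the small subunit, had the largest difference among called ribosomal protein genes, with 684, 698 and 684 CPM in the Ddx10KD libraries, against 806, 1000.1 and 919 CPM in the Ddx24KD libraries. All its Ddx10KD values lay below all its Ddx24KD values, and the log2 difference was -0.39 ± 0.05 (adjusted p = 8.28e-05). Rps9 differed by -0.28 ± 0.04 (adjusted p = 8.46e-04), Rps27 by -0.23 ± 0.04 (adjusted p = 0.00414) and Rps14 by -0.20 ± 0.04 (adjusted p = 0.00957). In the large subunit, Rpl7 had 1226, 1234 and 1168 CPM in the Ddx10KD libraries, against 1391, 1516 and 1330.0 CPM in the Ddx24KD libraries, a log2 difference of -0.22 ± 0.03 (adjusted p = 2.81e-04). Rpl17 differed by -0.24 ± 0.03, Rpl10 by -0.22 ± 0.03 and Rpl27a by -0.23 ± 0.03, with adjusted p of 3.00e-04, 3.35e-04 and 4.69e-04. The summed level of the large subunit genes was 41781, 44237 and 41362 CPM in Ddx10KD, against 45133, 48059 and 46360 CPM in Ddx24KD, and it was 42542, 45649 and 43390 CPM in EGFPKD. Ddx10KD and Ddx24KD did not overlap in these sums, and Ddx10KD lay below EGFPKD at each replicate number. The small subunit genes summed to 27509, 29239 and 27145 CPM in Ddx10KD and 29001, 31309 and 29707 CPM in Ddx24KD. In EGFPKD they summed to 26448, 28308 and 26744 CPM. The small subunit sums thus overlapped between Ddx10KD and Ddx24KD, and those of Ddx10KD lay above EGFPKD at each replicate number.

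Calls among the ribosomal protein genes rested on the block. Without it 2 small subunit genes and no large subunit gene were called. Leaving out Ddx10KD replicate 2, Ddx10KD replicate 3 or Ddx24KD replicate 3 left 3, 5 and 5 small subunit genes called, and leaving out Ddx10KD replicate 1, 2 or 3 or Ddx24KD replicate 3 left 17, 16, 15 and 17 large subunit genes. Ribosomal protein genes have many processed pseudogenes, among which the authors' counting could divide reads.

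Of 63 tested initiation and elongation factor genes, a list added after values were seen, 8 were called lower and 5 higher in Ddx10KD, with a median of -0.03. That is 20.6% called, against 5.41% of all tested genes. Eif4b (chromosome 15, 102073773 to 102097173), a cofactor of the helicase eIF4A, had the smallest p after the targets. It had 739, 692 and 661 CPM in the Ddx10KD libraries, against 947, 997 and 960.0 CPM in the Ddx24KD libraries, and 897, 907 and 873 CPM in EGFPKD. Every Ddx10KD value lay below every Ddx24KD and EGFPKD value, and the log2 difference was -0.47 ± 0.04 (adjusted p = 5.07e-07). Eef1b2, an exchange factor for the elongation factor eEF1A, had 591, 597 and 608 CPM in the Ddx10KD libraries, against 718, 803 and 768 CPM in the Ddx24KD libraries, a log2 difference of -0.35 ± 0.03 (adjusted p = 5.83e-06). Eif3f, a subunit of eIF3, differed by -0.32 ± 0.04 (adjusted p = 6.62e-05).

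Eef2, which moves the ribosome along the message, had 3649.5, 3590.1 and 3602 CPM in the Ddx10KD libraries, against 4236, 4396 and 4329 CPM in the Ddx24KD libraries, with 3429.5, 3607 and 3505 CPM in EGFPKD. Its Ddx10KD values stood below the Ddx24KD values and near the EGFPKD values, and it differed by -0.26 ± 0.03 (adjusted p = 8.28e-05). Among the 5 called higher were Eif6, which keeps free large subunits from joining small ones, at 0.20 ± 0.04 (adjusted p = 0.0123), and Eif5, which triggers GTP hydrolysis by eIF2, at 0.28 ± 0.05 (adjusted p = 0.0022; this gene was chosen after its values were seen). Without the block 5 genes were called lower and 1 higher. With 1 library left out, 7 to 9 were called lower, and the 5 called higher became 2, 1, 2 and 2 without Ddx10KD replicate 1, 2 or 3 or Ddx24KD replicate 1.

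**Figure D3:**
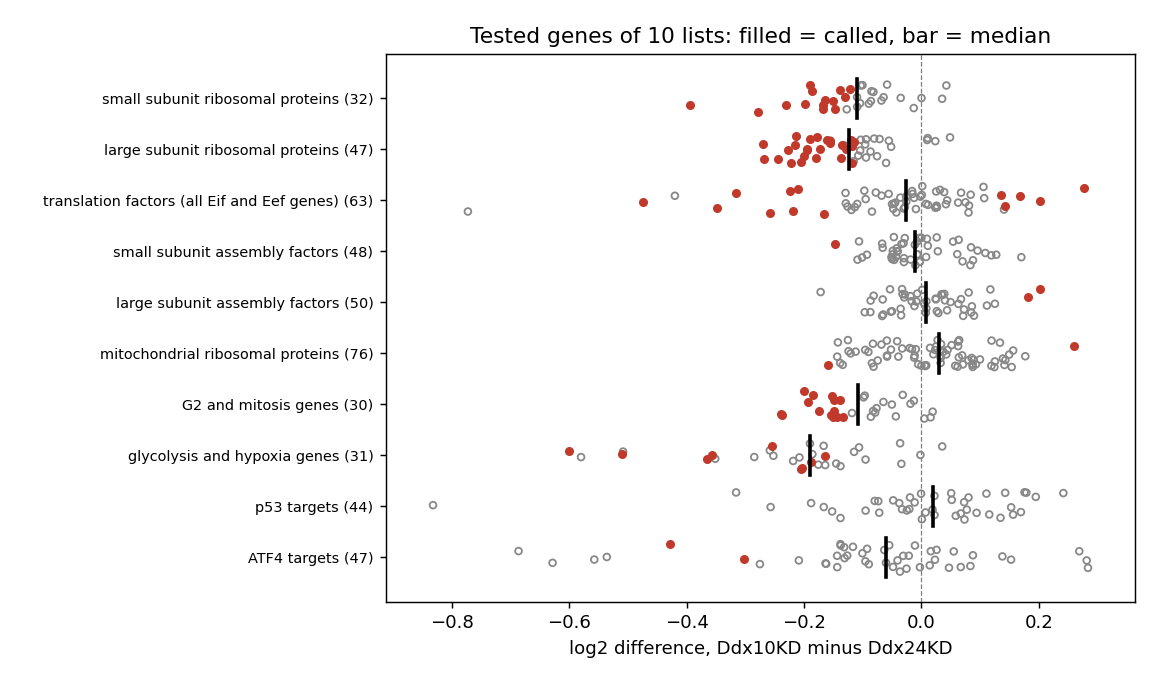
Log2 differences, Ddx10KD minus Ddx24KD (horizontal axis), of the tested genes of 10 lists (rows, with the number tested), as filled points where called and open points otherwise, with a bar at the median. The ribosomal protein lists have medians of -0.11 and -0.12, and the p53 targets, none of them called, a median of 0.02.

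Factors that assemble ribosomes differed in few genes. Of 48 small subunit assembly factors 1 was called, Nat10, which acetylates 18S ribosomal RNA, at -0.15 ± 0.04 (adjusted p = 0.0216), and the median was -0.01. Of 50 large subunit assembly factors 2 were called higher, Eif6 and Wdr74, the second at 0.18 ± 0.04 (adjusted p = 0.0108), and the median was 0.01. These shares, 2.08% and 4.00%, lay near or below the 5.41% called among all genes. Of 16 proteins of small nucleolar ribonucleoproteins and their partners, Nolc1 (-0.17 ± 0.04, adjusted p = 0.0281) and Tcof1 (-0.13 ± 0.03, adjusted p = 0.0271) were called lower. That is 12.5%, against 3.09% called lower among all tested genes. Polr1c, a subunit shared by RNA polymerases I and III, was the only 1 of 15 RNA polymerase I genes called, at -0.20 ± 0.05 (adjusted p = 0.019). Mitochondrial ribosomal proteins had 1 of 76 called higher, Mrpl38 (0.26 ± 0.05), and 1 lower, Mrpl18 (-0.16 ± 0.04), with a median of 0.03. The shares called were 6.67% of the RNA polymerase I genes and 2.63% of the mitochondrial ribosomal proteins, against 5.41% of all tested genes. None of the genes in these 5 lists was called without the block.

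Of 44 other DEAD-box and DEAH-box helicases 4 were called lower (9.09%, against 3.09% of all tested genes) and none higher, with a median of -0.00. Ddx17, a coregulator of transcription and splicing, had 403, 378 and 397 CPM in the Ddx10KD libraries, against 467, 490.4 and 439.8 CPM in the Ddx24KD libraries, with 373, 335 and 342 CPM in EGFPKD. The groups did not overlap, and it differed by -0.25 ± 0.04 (adjusted p = 0.00131). The others were Ddx46, of the spliceosome, at -0.15 ± 0.03, Dhx9, which unwinds RNA-DNA hybrids, at -0.17 ± 0.04, and Ddx6, of processing bodies, at -0.13 ± 0.04, with adjusted p of 0.0161, 0.0287 and 0.0353. Of 30 R-loop factors 2 were called higher, the topoisomerase genes Top1 (0.15 ± 0.04) and Top3b (0.21 ± 0.06), and 3 lower, Nat10, Dhx9 and Rnaseh2c, a subunit of an enzyme that cuts RNA in such hybrids, at -0.23 ± 0.07 (adjusted p = 0.0479). Of the R-loop factors 16.7% were called, against 5.41% of all tested genes. No gene of these lists was called without the block.

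Genes of the 2-cell-like state had the lowest median of the lists. This state is a rare and passing condition of embryonic stem cells in which transcripts of the 2-cell embryo, such as those of the Zscan4 cluster, are made. Of 35 tested genes 22 were called lower in Ddx10KD (62.9%, against 3.09% of all tested genes) and none higher. The median log2 difference was -0.90, and 31 lay below 0. Relative to EGFPKD the list's median was -0.06 in Ddx10KD and 0.86 in Ddx24KD. The Ddx10KD values thus lay near those of the control and the Ddx24KD values above them. In bulk RNA, fewer cells in this state and less of its RNA per cell cannot be told apart.

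Zscan4f (chromosome 7, 11397915 to 11402318) had 19.3, 13.98 and 13.9 CPM in the Ddx10KD libraries, against 31.8, 44.7 and 35.6 CPM in the Ddx24KD libraries, with 17.3, 17.7 and 23.4 CPM in EGFPKD. The Ddx10KD values lay below all Ddx24KD values, and the log2 difference was -1.25 ± 0.16 (adjusted p = 1.29e-04). Zscan4b differed by -1.36 ± 0.19, Zscan4d by -1.22 ± 0.17, Zscan4c by -1.10 ± 0.16 and Zscan4a by -1.25 ± 0.19, with adjusted p of 4.18e-04, 3.74e-04, 3.77e-04 and 8.41e-04. These genes are near-identical copies in 1 cluster on chromosome 7, so the division of reads among them is uncertain. Stretches of 78 bases before the starts of 4 copies are given below (RefSeq, GRCm38.p6), with the letters that differ among the copies in capitals.
Zscan4b (chr7:10905153-10905230, minus strand): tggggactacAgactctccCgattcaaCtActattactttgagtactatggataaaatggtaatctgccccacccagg
Zscan4c (chr7:11005542-11005619, plus strand): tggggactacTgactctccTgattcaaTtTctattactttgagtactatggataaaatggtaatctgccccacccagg
Zscan4d (chr7:11166285-11166362, minus strand): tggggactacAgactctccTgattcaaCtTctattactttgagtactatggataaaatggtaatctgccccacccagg
Zscan4f (chr7:11397735-11397812, plus strand): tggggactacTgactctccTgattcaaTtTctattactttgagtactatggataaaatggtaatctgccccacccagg
The stretches differed at 4 of 78 positions, and the last 48 bases are the shared run by which the stretch was chosen. Because of that choice, this count does not measure how alike the copies are. The stretches end 102 to 136 bases before the listed starts, so they do not show how reads divided among the transcripts.

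Outside the cluster, the predicted gene Gm2016 (chromosome 12, 87874072 to 87877859) had 6.15, 4.98 and 5.13 CPM in the Ddx10KD libraries, against 11.1, 11.4 and 11.6 CPM in the Ddx24KD libraries, with 5.52, 5.45 and 5.34 CPM in EGFPKD. Its groups did not overlap, the log2 difference was -1.07 ± 0.09 (adjusted p = 2.44e-06), and its neighbour Gm2022 differed by -1.15 ± 0.12 (adjusted p = 1.41e-05). Gm4340 had 15.8, 12.1 and 10.7 CPM in the Ddx10KD libraries, against 33.7, 28.3 and 29.99 CPM in the Ddx24KD libraries, a log2 difference of -1.26 ± 0.11 (adjusted p = 3.89e-06). Among genes with few counts, BB287469 differed by -1.15 ± 0.19 (adjusted p = 0.00131) and Tdpoz4 by -1.78 ± 0.33 (adjusted p = 0.00447), the second at 0.356, 0.148 and 0.328 CPM in the Ddx10KD libraries, against 0.818, 0.933 and 1.11 CPM in the Ddx24KD libraries. Dppa2, which activates genes of this state and is expressed throughout the culture, differed by -0.18 ± 0.04 (adjusted p = 0.0116). A further 4 called genes carry Usp17l symbols and belong to another family of similar copies. BB287469, Gm2016 and Gm2022 lie close together on chromosome 12, between 87816577 and 87896722, with transcripts of 1766 to 1851 bases. Whether reads were shared among them was not tested.

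The 22 called genes had a median level, relative to the Ddx24KD mean, of -0.80, -1.14 and -1.16 (log2) in the Ddx10KD libraries and -0.12, 0.08 and -0.00 in the Ddx24KD libraries. It was -0.26, -0.40 and -0.66 in Ddx27KD, -0.21, -0.42 and -0.23 in Ddx54KD and -1.02, -1.10 and -0.67 in EGFPKD. Because the genes were chosen for the difference between Ddx10KD and Ddx24KD, the values of those groups are a description. Those of the other groups are set against the same Ddx24KD mean, so they too are a description. Without the block 13 genes of the list were called lower, and 14 and 13 were without Ddx10KD replicate 2 or 3. Without Ddx24KD replicate 2, in which Zscan4f was highest, 17 were called, and DESeq2 called 15.

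**Figure D4:**
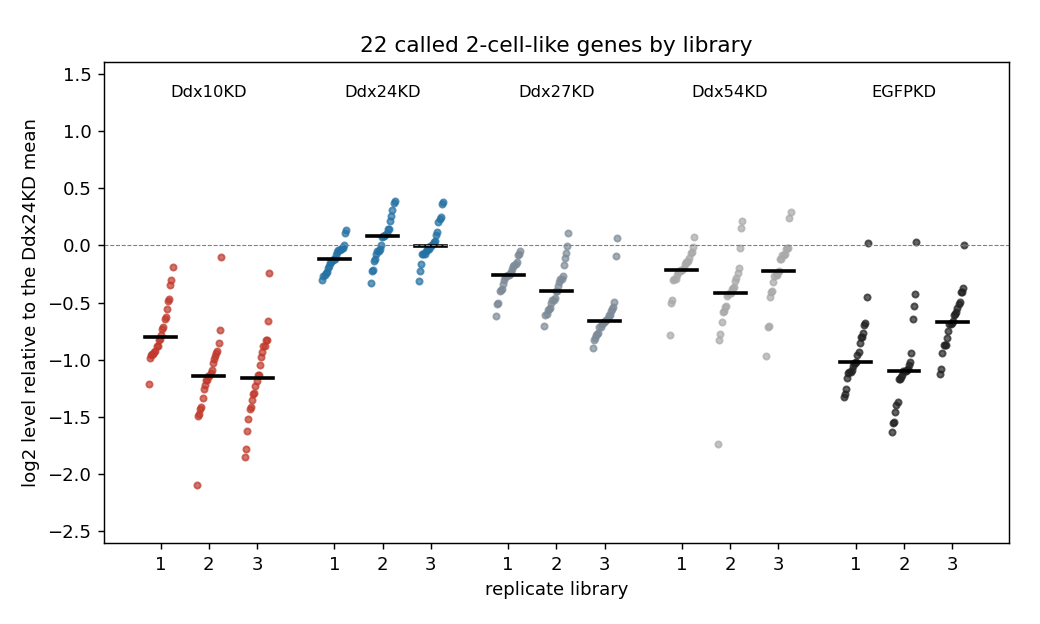
Log2 level relative to the Ddx24KD mean (vertical axis) of 22 called 2-cell-like genes (points) in each of 15 libraries (horizontal axis, by group), with a bar at the median of each library. Medians run from -1.16 to -0.80 in Ddx10KD, from -0.12 to 0.08 in Ddx24KD and from -1.10 to -0.67 in EGFPKD.

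The list of paraspeckle genes and nuclear RNAs had 3 of 10 members called lower (30%, against 3.09% of all tested genes) and all 10 below 0. Neat1 (chromosome 19, 5824708 to 5845480), the long noncoding RNA on which paraspeckles form, had 27.7, 20.5 and 28.7 CPM in the Ddx10KD libraries, against 50.2, 36.9 and 59.6 CPM in the Ddx24KD libraries, with 24.2, 20.02 and 19.6 CPM in EGFPKD. Its highest Ddx10KD value lay below its lowest Ddx24KD value, and it differed by -0.93 ± 0.10 (adjusted p = 4.06e-05, and 0.00689 without the block). Relative to EGFPKD, Neat1 differed by 0.26 ± 0.11 in Ddx10KD and 1.19 ± 0.11 in Ddx24KD. Kcnq1ot1, an imprinted antisense RNA within Kcnq1, had 966, 1022 and 605 CPM in the Ddx10KD libraries, against 1180.0, 1260.3 and 790.1 CPM in the Ddx24KD libraries. Replicate 3 was the lowest library of both groups and the groups overlapped. It differed by -0.32 ± 0.04 with the block (adjusted p = 9.65e-05) and was not called without it (adjusted p = 0.713). Whether the counting used strand is not stated in these sources, so its reads cannot be told apart from those of Kcnq1. Rbm14, a paraspeckle protein, differed by -0.20 ± 0.04 (adjusted p = 0.0129).

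p53 restrains growth when ribosome assembly fails, because ribosomal proteins freed from that pathway bind its inhibitor Mdm2. None of 44 tested p53 targets was called between the knockdowns by edgeR, by DESeq2 or by limma-voom, and the list's median was 0.02. At an unadjusted p under 0.05, 6 lay higher and 2 lower. Cdkn1a, the cyclin-dependent kinase inhibitor p21, had 78.9, 82.7 and 91.1 CPM in the Ddx10KD libraries, against 84.3, 45.5 and 86.3 CPM in the Ddx24KD libraries, with 33.3, 30.4 and 30.3 CPM in EGFPKD. Replicate 2 of Ddx24KD was low and the groups overlapped, and the log2 difference was 0.24 ± 0.13, with a 95% interval of -0.03 to 0.51. Mdm2 had 301, 359 and 389 CPM in the Ddx10KD libraries, against 382, 262 and 470.1 CPM in the Ddx24KD libraries, again lowest in replicate 2 of Ddx24KD, and differed by -0.08 ± 0.12 (interval -0.33 to 0.17). Trp53 itself differed by 0.04 ± 0.04 (interval -0.05 to 0.13). Without Ddx24KD replicate 2, 7 of the 44 targets were called lower in Ddx10KD, among them Mdm2 (-0.31, adjusted p = 0.00392), which was also called lower without replicate 2 of all 5 groups (-0.31, adjusted p = 0.0313). Over all alternatives the Mdm2 difference ran from -0.31 to 0.07, with adjusted p of 0.00392 to 0.991, and the Cdkn1a difference from -0.02 to 0.42, with adjusted p of 0.118 to 0.978. Relative to EGFPKD the list's median was 1.07 in Ddx10KD and 1.08 in Ddx24KD, comparisons that share the control libraries.

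Of 15 tested genes in the list of p53 and its regulators, 3 were called lower (20%, against 3.09% of all tested genes). The mitotic kinase gene Aurka differed by -0.20 ± 0.04 (adjusted p = 0.00297), Usp7, which deubiquitinates Mdm2 and p53, by -0.14 ± 0.03 (adjusted p = 0.0113) and Rpl5, a ribosomal protein that binds Mdm2, by -0.12 ± 0.03 (adjusted p = 0.0224). Among 47 genes that ATF4 activates in the integrated stress response, 2 were called lower, Atf4 itself and Herpud1, and the median was -0.06. That is 4.26% called, near the 5.41% of all tested genes. Atf4 had 158, 166 and 141 CPM in the Ddx10KD libraries, against 185, 203 and 185 CPM in the Ddx24KD libraries, with 215, 239 and 221 CPM in EGFPKD. Its groups did not overlap and it differed by -0.30 ± 0.04 (adjusted p = 1.40e-04), against a difference of -0.43 ± 0.12 for Herpud1 (adjusted p = 0.0472). None of these 5 genes was called without the block.

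**Figure D5:**
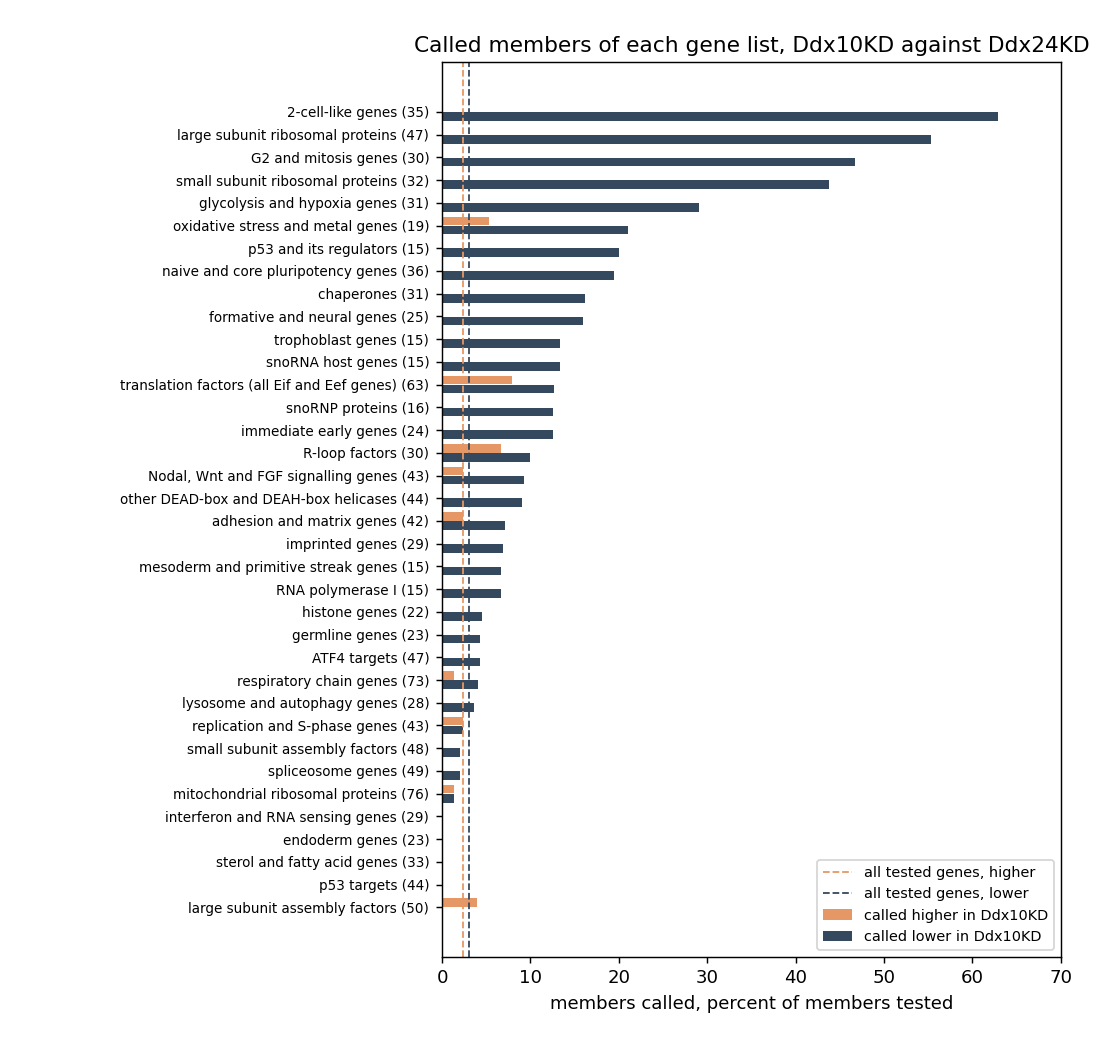
Percent of tested members called higher and called lower in Ddx10KD (horizontal axis, from 0) for gene lists with at least 15 tested members (rows, with the number tested). Dashed lines mark the 2.32% called higher and 3.09% called lower among all tested genes, and the 2-cell-like list stands at 62.9%, the large subunit ribosomal proteins at 55.3% and the p53 targets at 0.

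Genes of G2 and mitosis were slightly lower in Ddx10KD than in Ddx24KD, with 14 of 30 called lower (46.7%, against 3.09% of all tested genes). None was called higher, and the median was -0.11. Relative to EGFPKD the list's median was -0.03 in Ddx10KD and 0.10 in Ddx24KD, comparisons that share the control libraries. The Ddx10KD median thus lay near the control and the Ddx24KD median above it. Called genes ran from -0.24 to -0.13. The spindle gene Nusap1 had 99.2, 114 and 103 CPM in the Ddx10KD libraries, against 122, 132 and 119 CPM in the Ddx24KD libraries, a log2 difference of -0.24 ± 0.04 (adjusted p = 0.00212). The proliferation marker Mki67 had 441, 448 and 453 CPM in the Ddx10KD libraries, against 499, 578 and 508 CPM in the Ddx24KD libraries, a log2 difference of -0.24 ± 0.04 (adjusted p = 0.003). In both genes the Ddx10KD values lay below the Ddx24KD values, and Tpx2, an activator of Aurora A, differed by -0.17 ± 0.03 (adjusted p = 0.00409). Of 43 replication and S-phase genes, E2f1 was called higher (0.28 ± 0.05, adjusted p = 0.00296) and Orc1 lower (-0.15 ± 0.04, adjusted p = 0.0304). That is 4.65% called, near the 5.41% of all tested genes. No gene of either list was called without the block, and 8, 4 and 7 mitosis genes were called without Ddx10KD replicate 1, 2 or 3.

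Genes of glycolysis and the hypoxia response lay below 0 in 30 of 31 cases, with a median of -0.19. In Ddx10KD 9 were called lower (29%, against 3.09% of all tested genes) and none higher. Called genes ran from -0.60 to -0.16. The hypoxia-induced gene Ndrg1 had 22.3, 20.2 and 20.5 CPM in the Ddx10KD libraries, against 31.2, 32.8 and 25.6 CPM in the Ddx24KD libraries, without overlap, and differed by -0.51 ± 0.10 (adjusted p = 0.00733). Tpi1, which interconverts the triose phosphates, had 328, 301 and 268 CPM in the Ddx10KD libraries, against 388, 445 and 325 CPM in the Ddx24KD libraries, with overlap, and differed by -0.37 ± 0.08 (adjusted p = 0.00952). Pkm, the last enzyme of glycolysis, differed by -0.20 ± 0.04 (adjusted p = 0.0111) and Gpi1 by -0.19 ± 0.04 (adjusted p = 0.0155). The list's median level relative to the Ddx24KD mean was -0.16, -0.17 and -0.26 in Ddx10KD, and -0.03, 0.18 and -0.19 in Ddx24KD, where replicate 2 was highest. None was called without the block, none without Ddx10KD replicate 2 or 3, and 15 were called without Ddx24KD replicate 3.

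Chaperones had 5 of 31 genes called lower (16.1%, against 3.09% of all tested genes) and none higher. The named ones act in the endoplasmic reticulum: Hspa5 differed by -0.25 ± 0.04 (adjusted p = 0.00154), Calr by -0.23 ± 0.04 (adjusted p = 0.00134), Manf by -0.26 ± 0.05 (adjusted p = 0.00421) and Hsp90b1 by -0.18 ± 0.04 (adjusted p = 0.00659). Of 19 genes of oxidative stress and metals, 4 were called lower, among them Ftl1, the ferritin light chain (-0.21 ± 0.04, adjusted p = 0.00158), and the metallothionein Mt1, with 34.1, 38.99 and 29.3 CPM in the Ddx10KD libraries, against 43.3, 70.9 and 34.6 CPM in the Ddx24KD libraries. Mt1 differed by -0.51 ± 0.10 (adjusted p = 0.00823) and its groups overlapped, replicate 2 of Ddx24KD being high. The zinc exporter gene Slc30a1 was called higher (0.22 ± 0.05, adjusted p = 0.0237), and 26.3% of this list were called, against 5.41% of all tested genes. None of these chaperone, stress and metal genes was called without the block. None of 33 sterol and fatty acid genes and none of 29 interferon and RNA sensing genes was called by edgeR, DESeq2 or limma-voom. At an unadjusted p under 0.05, 3 of the sterol list lay higher and 2 of the interferon list lower.

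Of the core pluripotency factors, Pou5f1 was called in none of the fits run, Sox2 and Nanog were called lower in some alternatives but not with all 15 libraries in edgeR, and a few other pluripotency genes were lower in Ddx10KD. Pou5f1 had 1006, 1039 and 956 CPM in the Ddx10KD libraries, against 982, 1006 and 988 CPM in the Ddx24KD libraries, with a log2 difference of 0.01 ± 0.04 (95% interval -0.07 to 0.09). Sox2 differed by -0.12 ± 0.04 (interval -0.20 to -0.04, adjusted p = 0.0774) and Nanog by -0.15 ± 0.05 (interval -0.26 to -0.04, adjusted p = 0.0973), and both intervals lay below 0. Sox2 was called lower by DESeq2 (adjusted p = 0.0458), without Ddx24KD replicate 2 (adjusted p = 0.0176) and without replicate 2 of all 5 groups (adjusted p = 0.0451), and over all alternatives it ran from -0.17 to -0.08, with adjusted p up to 0.416. Nanog was called lower without Ddx24KD replicate 1 (adjusted p = 0.0165), and it ran from -0.24 to -0.04, with adjusted p up to 0.877. Of 36 pluripotency genes 7 were called lower (19.4%, against 3.09% of all tested genes) and none higher. Among them were Myc (-0.32 ± 0.06, adjusted p = 0.00402), the growth factor gene Fgf4 (-0.33 ± 0.06, adjusted p = 0.00482) and the Nodal coreceptor gene Tdgf1 (-0.23 ± 0.04, adjusted p = 0.00362). Of 43 Nodal, Wnt and FGF signalling genes 4 were called lower, including Bmp4 (-0.35 ± 0.06, adjusted p = 0.00297), and 1 higher, the ETS factor gene Etv4 (0.32 ± 0.08, adjusted p = 0.018). Of 25 formative and neural genes 4 were called lower, Sox3 (-0.66 ± 0.17), Zic2 (-0.32 ± 0.08), Lef1 (-0.36 ± 0.10) and Tubb3 (-0.17 ± 0.05). Of 15 trophoblast genes Tead4 (-0.54 ± 0.08, adjusted p = 8.52e-04) and Eomes (-0.49 ± 0.13, adjusted p = 0.0317) were called lower. None of these genes was called without the block, and with 1 library left out 3 to 9 of the pluripotency list and 0 to 3 of the formative list were called lower. The signalling, formative and trophoblast lists had 11.6%, 16% and 13.3% called, against 5.41% of all tested genes.

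Genes outside these lists had some of the smallest p. Rnf10 (chromosome 5, 115241770 to 115272921), a ubiquitin ligase that in human cells modifies small subunit ribosomal proteins, had 298, 269.7 and 304 CPM in the Ddx10KD libraries, against 432, 432 and 418 CPM in the Ddx24KD libraries, with 403, 423 and 425 CPM in EGFPKD. Every Ddx10KD value lay below every value of both other groups, and it differed by -0.56 ± 0.05 (adjusted p = 1.91e-06). Cox7a2l, which helps to assemble respiratory supercomplexes, had 59.2, 56.8 and 59.7 CPM in the Ddx10KD libraries, against 78.3, 102 and 95.6 CPM in the Ddx24KD libraries, with 83.04, 88.8 and 90.05 CPM in EGFPKD. It differed by -0.64 ± 0.06 (adjusted p = 5.83e-06), again with Ddx10KD below both other groups. Cox6b2, a testis isoform of a cytochrome oxidase subunit, had 15.97, 20.1 and 15.8 CPM in the Ddx10KD libraries, against 23.1, 30.9 and 24.3 CPM in the Ddx24KD libraries, and 7.35, 8.59 and 7.84 CPM in EGFPKD, so that both knockdowns lay above the control. It differed by -0.59 ± 0.06 (adjusted p = 1.10e-05), and the microtubule-binding protein gene Map1a by -0.42 ± 0.04 (adjusted p = 1.59e-05).

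Among genes higher in Ddx10KD, Foxk2 (chromosome 11, 121259987 to 121309900), a forkhead transcription factor gene, had 98.1, 86.98 and 101 CPM in the Ddx10KD libraries, against 67.7, 63.2 and 67.2 CPM in the Ddx24KD libraries, with 67.8, 70.3 and 69.00 CPM in EGFPKD. Every Ddx10KD value lay above every value of both other groups, and it differed by 0.53 ± 0.05 (adjusted p = 5.83e-06). Usp11, the deubiquitinase gene, had 39.5, 41.8 and 48.3 CPM in the Ddx10KD libraries, against 28.5, 23.9 and 32.4 CPM in the Ddx24KD libraries, with 25.5, 29.5 and 28.9 CPM in EGFPKD, and differed by 0.61 ± 0.07 (adjusted p = 6.82e-05). Its Ddx10KD values too lay above those of both other groups. Tmem181a (chromosome 17, 6256726 to 6308314) had the largest difference among the 10 genes higher in Ddx10KD with the smallest p, apart from Ddx24, with 27.4, 29.8 and 27.2 CPM in the Ddx10KD libraries, against 15.1, 13.8 and 17.6 CPM in the Ddx24KD libraries. It differed by 0.85 ± 0.10 (adjusted p = 6.82e-05), and its near-identical copy Tmem181b-ps, with which it could share reads, by 0.64 ± 0.13 (adjusted p = 0.00774).

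Further genes higher in Ddx10KD encode enzymes and regulators of several kinds. Akr1a1, an aldehyde reductase, differed by 0.32 ± 0.04 (adjusted p = 4.06e-05), Sdf4, a calcium-binding protein of the Golgi, by 0.36 ± 0.04 (adjusted p = 6.62e-05) and Dzip3, a ubiquitin ligase, by 0.39 ± 0.05 (adjusted p = 2.28e-04). Ifrd1, a transcriptional coregulator, had 171, 176 and 162 CPM in the Ddx10KD libraries, against 139, 105 and 125 CPM in the Ddx24KD libraries, with 72.5, 69.5 and 65.7 CPM in EGFPKD. Both knockdowns lay above the control and Ddx10KD above Ddx24KD, by 0.47 ± 0.06 (adjusted p = 1.31e-04). Ephx2, an epoxide hydrolase, had 63.9, 63.8 and 77.1 CPM in the Ddx10KD libraries, against 48.2, 43.9 and 56.1 CPM in the Ddx24KD libraries, with 56.5, 61.5 and 70.1 CPM in EGFPKD. Relative to EGFPKD it differed by 0.12 ± 0.05 in Ddx10KD and -0.35 ± 0.06 in Ddx24KD, the difference between the knockdowns was 0.47 ± 0.06 (adjusted p = 6.91e-05), and it was not called without the block (adjusted p = 0.174).

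Genes with the largest log2 differences were often low in count. Awat2, a wax synthase, had 0.854, 1.03 and 0.764 CPM in the Ddx10KD libraries, against 0.372, 0.373 and 0.483 CPM in the Ddx24KD libraries and differed by 1.10 ± 0.31 (adjusted p = 0.0441). Hal, a histidine-degrading enzyme, differed by 0.75 ± 0.21, Slc6a7, a proline transporter, by 0.72 ± 0.16 and Zbtb7c by 0.68 ± 0.20, with adjusted p of 0.0455, 0.013 and 0.0479. Raet1a and Raet1c, similar genes for ligands of the receptor NKG2D that could share reads, differed by 0.57 ± 0.14 and 0.60 ± 0.15 (adjusted p = 0.0246 and 0.0263). Retsat, Rnf157, Actn2, Fgr and Rnf166 differed by 0.56 to 0.61. Among those lower, Nxph4 had 0.925, 0.443 and 0.91 CPM in the Ddx10KD libraries, against 2.9, 2.05 and 1.45 CPM in the Ddx24KD libraries and differed by -1.48 ± 0.26 (adjusted p = 0.00312), and Cd1d2 by -1.69 ± 0.33 (adjusted p = 0.00589). Lgals6 was at 0.00, 0.0738 and 0.109 CPM in the Ddx10KD libraries, against 0.297, 0.933 and 0.557 CPM in the Ddx24KD libraries, too few counts for a fold. Raver1-fdx1l, a readthrough locus, differed by -1.16 ± 0.15 (adjusted p = 1.29e-04). It averaged 3.90 CPM in Ddx10KD, 4.24 in Ddx27KD and 4.20 in Ddx54KD, against 8.79 in Ddx24KD and 7.47 in EGFPKD. Of these, Raver1-fdx1l was called without the block (adjusted p = 0.00193), and the others were not.

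Other lists held few called genes each, though in some the share lay above that of all tested genes. Of 73 respiratory chain genes Ndufa12 was called higher (0.20 ± 0.05) and Uqcrh (-0.33 ± 0.06), Atp5g2 (-0.17 ± 0.04) and Atp5l (-0.16 ± 0.04) lower, which is 5.48%. Of 49 spliceosome genes 1 was called lower, Snrpe (-0.22 ± 0.05), of 28 lysosome and autophagy genes Npc2 (-0.25 ± 0.05), of 23 germline genes Dnmt3l (-0.18 ± 0.04) and of 22 histone genes H2afx (-0.24 ± 0.04). These shares, 2.04%, 3.57%, 4.35% and 4.55%, lay near or below the 5.41% called among all tested genes. Of 24 immediate early genes 3 were called lower (12.5%), Myc, Klf6 (-0.24 ± 0.05) and Arc (-0.28 ± 0.07). Of 29 imprinted genes 2 were (6.9%), Kcnq1ot1 and Impact (-0.19 ± 0.04). Of 15 small nucleolar RNA host genes Snhg5 (-0.25 ± 0.05) and Snhg8 (-0.51 ± 0.14) were called lower (13.3%). Of 8 paralogues of ribosomal proteins Rpl22l1 (-0.44 ± 0.10) and Rpl36al (-0.15 ± 0.03) were called lower (25%). Of 42 adhesion and matrix genes Epcam was called higher (0.12 ± 0.03), and Cldn4 (-0.21 ± 0.04) and Nid2 (-0.14 ± 0.03) were among those called lower. In that list 9.52% were called, against 5.41% of all tested genes. Of 15 mesoderm genes 1 was called (6.67%), Eomes. None of 23 endoderm genes was called by edgeR, DESeq2 or limma-voom, and 3 lay higher at an unadjusted p under 0.05. Apart from Myc, Kcnq1ot1 and Eomes, which were described with other lists, the adjusted p of these genes ran from 0.00189 to 0.0428, and none was called without the block.

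Of 10 tested neighbours of Ddx10 and Ddx24, Atm, the DNA damage kinase gene, was called, at 149.6, 139 and 153 CPM in the Ddx10KD libraries, against 169.8, 164 and 158 CPM in the Ddx24KD libraries, a log2 difference of -0.15 ± 0.04 (adjusted p = 0.0321), and it was not called without the block. The other 9 were not called, and 8 of the 10 lay above 0, with a median of 0.11. Their differences ran up to 0.57 ± 0.51 for Unc79, which had under 1 CPM on average in both groups, with 0.29 ± 0.17 for Ppp4r4, 0.17 ± 0.07 for Acat1 (adjusted p = 0.144), 0.01 ± 0.05 for Npat and -0.00 ± 0.04 for Cul5.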

How the data were processed

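Poly(A) RNA libraries of 15 samples, 3 in each of 5 groups, were used. Per the submitters' processing notes, the authors quantified genes with RSEM on mm10, and no source used here gives the aligner, the annotation or the RSEM version. Per the file headers, the deposited expected counts are estimated reads per gene, not scaled for depth, and the deposited TPM are levels scaled for length and depth. The deposited EBSeq tables were not used.

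Expected counts were rounded to integers and genes were filtered with filterByExpr, which kept 14335 of 23845 (99.97% of counts). Libraries were scaled by TMM, and 1 edgeR quasi-likelihood fit of all 15 libraries had group and replicate number as terms. The contrast was Ddx10KD minus Ddx24KD, with Benjamini-Hochberg adjustment over all tested genes, and a gene is called when its adjusted p is under 0.05. SE was taken from the F statistic, and intervals are at 95%. The fit was also run on simulated counts with known changes. A replicate effect common to all groups was built into those counts, so they cannot show whether the block suits the real data. The tools were edgeR 4.0.16 in R 4.3.3, with DESeq2 1.42.0 and limma 3.58.1 for alternatives: other scaling factors and count filters, no block, fewer libraries and a stricter threshold.

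The labels give the replicate numbers. Measured as deviations from group means, libraries of the same number correlated at 0.106 to 0.335 in all 30 pairs from different groups, and those of different numbers at -0.249 to 0.053. Deviations from a mean cancel within a group, so the ranges for same and different numbers are not independent. Replicates differed by more than counting noise. Depth of 26866327 to 27694846 counts in the 6 libraries bounds the precision of genes with few counts.

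The comparison and the gene lists were chosen with earlier results of these data known. Named genes are the targets, in each direction up to 15 genes of largest log2 difference and up to 10 with the smallest p (called, mean TPM of at least 1, same sign in all 3 replicate pairs), up to 4 called members of each list, target neighbours and Trp53, Cdkn1a, Mdm2, Pou5f1, Nanog and Sox2. Predicted models were named only as list members. Of 140 such genes, 134 were matched in RefSeq. 1 list member and 1 start sequence are not reported here.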

Additional observations from a re-analysis of the deposited data

How the results depend on the processing

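Compared with 333 genes called higher and 443 lower, 32 of them by at least 2-fold, the fit without the replicate block called 15 and 44 (20 by 2-fold), and the 6 libraries alone with the block called 32 and 111 (19 by 2-fold). At an adjusted p under 0.01 the counts were 66 and 141 (21 by 2-fold). DESeq2 gave 17 genes at 2-fold and a filter of 10 CPM in 3 libraries gave 11. With 1 of the 6 libraries left out, 61 to 261 genes were called higher, 130 to 458 lower and 18 to 42 at 2-fold. Without replicate 1, 2 or 3 of all 5 groups, 33, 72 and 80 were called higher and 101, 203 and 169 lower. Without both the block and Ddx24KD replicate 2, a setting chosen after seeing the data, 11 were called higher and 29 lower (13 by 2-fold). RLE and upper-quartile factors, limma-voom and no count filter kept both counts within 1.5 times. No result changed direction past the threshold. Of 125 named called genes, 25 were called in every alternative run, among them Ddx10, Ddx24, Eif4b, Rnf10, Cox7a2l, Neat1, Foxk2, Usp11 and Tmem181a. Depth limits genes with few counts, and 3 libraries a group limit small differences. The cause of the changes in count was not tested.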
